A study of Mus musculus with 10 samples.

Results

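Gelsolin and the capping protein Capg, close relatives that both bind the ends of actin filaments, differed in opposite directions in thymic iNKT cells without Id3: Capg was 3.99-fold to 4.51-fold lower and gelsolin (Gsn) 3.24-fold to 4.28-fold higher than in wild-type (WT) cells. Described here are 8 genes of actin-binding proteins, Capg, Gsn, Cfl1, Actn1, Lsp1, Coro1a, Lcp1 and Flna, among 18193 genes that a platform annotation names on the array. They were chosen by name, through every probe set the annotation gives them, and Capg and Gsn were picked because their values in these arrays moved apart between the genotypes. Differences between the genotypes are therefore given for all 8 genes as descriptions, without a test. The genes had 20 probe sets, of which 17 passed the filter on dim signals, with at least 1 for each gene.

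The arrays measured RNA of iNKT cells, lymphocytes whose largely invariant T cell receptor sees lipid antigens, sorted from the thymus of 6-week-old C57BL/6 mice that were WT or Id3KO. Id3KO mice lack the inhibitor protein Id3, which holds back E proteins, transcription factors that bind the DNA sequence CANNTG. The sort took Tet+ (tetramer-binding), CD24- and NK1.1- cells as CD44- stage 1 or CD44+ stage 2. There were 2 WT stage 1 arrays, 3 WT stage 2 arrays, 2 Id3KO stage 1 arrays and 3 Id3KO stage 2 arrays, labelled as biological replicates. The labels say no more of the Id3 allele, of how many animals gave each sample, or of batches, and both genotypes shared strain, age and sort.

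Actin filaments grow at one end from a pool of monomers, and their length and arrangement set the shape and movement of T cells and the contact they make with other cells. Capg covers the growing end without cutting the filament. Gelsolin, driven by calcium, cuts filaments and then covers the new end. Cofilin (Cfl1) severs old filaments, coronin 1A (Coro1a) helps in their turnover and in T cell survival, plastin 2 (Lcp1) and alpha-actinin 1 (Actn1) tie filaments into bundles, filamin A (Flna) joins them into networks, and Lsp1 is a leukocyte protein that binds filaments at the cell cortex.

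The DNA just before the starts of Capg and Gsn is shown because these genes parted most between the genotypes and because Id3 acts through proteins that bind CANNTG, a motif that reads the same on both strands. The sequences are the 250 bases before each start in RefSeq (mouse build GRCm38.p6, plus strand, 5′ to 3′), with each CANNTG in capitals. Capg has 1 start in that table, at chr6:72549397-72549646, and Gsn has 3, at chr2:35256109-35256358, chr2:35266494-35266743 and chr2:35282130-35282379.
Capg: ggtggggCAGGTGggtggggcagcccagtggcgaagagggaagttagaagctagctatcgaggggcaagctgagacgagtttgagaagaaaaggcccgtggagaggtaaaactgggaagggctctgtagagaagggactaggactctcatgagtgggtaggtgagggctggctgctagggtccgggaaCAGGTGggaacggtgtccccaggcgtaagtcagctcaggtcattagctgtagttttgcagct
Gsn start 1: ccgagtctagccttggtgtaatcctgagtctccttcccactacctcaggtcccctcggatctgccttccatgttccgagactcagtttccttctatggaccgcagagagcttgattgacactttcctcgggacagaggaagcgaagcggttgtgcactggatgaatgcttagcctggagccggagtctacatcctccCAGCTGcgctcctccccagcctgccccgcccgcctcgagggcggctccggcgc
Gsn start 2: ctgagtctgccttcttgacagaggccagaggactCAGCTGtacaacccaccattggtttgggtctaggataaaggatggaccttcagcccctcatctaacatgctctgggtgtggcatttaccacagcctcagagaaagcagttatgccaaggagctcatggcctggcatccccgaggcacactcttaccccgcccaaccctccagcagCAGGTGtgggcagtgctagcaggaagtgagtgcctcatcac
Gsn start 3: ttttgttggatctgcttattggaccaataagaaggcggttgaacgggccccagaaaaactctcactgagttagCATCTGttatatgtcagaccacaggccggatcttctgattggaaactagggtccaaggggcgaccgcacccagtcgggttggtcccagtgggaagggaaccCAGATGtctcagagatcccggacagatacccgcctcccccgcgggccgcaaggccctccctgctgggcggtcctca

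Capg held 2 matches, beginning 243 and 62 bases before the start, and both read CAGGTG. The Gsn windows held 1 match at 53 bases (CAGCTG), 2 at 216 and 41 bases (CAGCTG and CAGGTG), and 2 at 177 and 76 bases (CATCTG and CAGATG). At least 1 CANNTG was present in 66.2% of the 32851 windows of this length in the table and at least 2 in 31.8%. The narrower pair CAGGTG or CACCTG, which is 1 motif read on either strand, occurred at least once in 17.2% of windows and at least 2 times, as in Capg, in 2.06%. CAGCTG occurred at least once in 13.0%. In all, 7 of the 8 genes matched the table with 11 windows, of which 8 held a CANNTG. A match is a description of the letters, and no binding was measured.

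The intensities are linear values that the authors normalized between arrays, and log2 of them was taken for differences, so that 1 unit is a doubling. A probe set was kept when it exceeded 55.1, the median of the whole table (5.78 in log2), on at least 2 arrays. Array medians ran from 54.8 to 55.5, and correlations between arrays from 0.975 to 0.989 within groups and from 0.962 to 0.989 between them. The Id3 probe set read 818 to 1289 on the WT arrays and 54.2 to 69.8 on the Id3KO arrays, as the labels have it, and Cd44 was higher on every stage 2 array than on every stage 1 array of its genotype. All 7 measured genes of the T and iNKT cell list were above the level on the 10 arrays, although Thy1 and Il2rb were lower in Id3KO at stage 2 (log2 differences of -1.39 ± 0.17 and -0.95 ± 0.20 (SE), limma adjusted p = 0.00385 and 0.0326). On the second principal component the 2 arrays of Id3KO stage 1 had scores of -20.3 and 15.5, near its opposite ends.

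Capg was the member furthest below WT in Id3KO. Its brighter probe set (1450355_a_at) read 1195 and 1153 on the WT stage 1 arrays and 1232, 1397 and 1583 on the WT stage 2 arrays. It read 287.9 and 301.2 on the Id3KO stage 1 arrays and 286.4, 335 and 308.9 on the Id3KO stage 2 arrays. All 5 Id3KO arrays were thus far below all 5 WT arrays, and they lay close to each other whatever the stage.

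The Capg group means were 1174 ± 29.7 (SD, n = 2) and 1404 ± 176 (SD, n = 3) in WT, and 294.6 ± 9.43 (SD, n = 2) and 310.1 ± 24.3 (SD, n = 3) in Id3KO. The log2 difference, Id3KO minus WT, was -1.99 ± 0.13 (SE) at stage 1, which is 3.99-fold lower, and -2.17 ± 0.10 at stage 2, which is 4.51-fold lower. The dimmer Capg probe set (1447803_x_at) went the same way with smaller differences, -0.66 ± 0.12 and -0.76 ± 0.10. It read 93.1 to 114.5 on the WT arrays and 56.2 to 68.5 on the Id3KO arrays, barely above the filter level, and its name marks it as a set with some probes that can match other transcripts.

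Gelsolin was higher in Id3KO. Its brightest probe set (1456312_x_at) read 661.4 and 563.4 on the WT stage 1 arrays and 433.3, 330.1 and 430.8 on the WT stage 2 arrays. On the Id3KO arrays it read 1476 and 2644 at stage 1 and 2221, 1516 and 1435 at stage 2. The lowest Id3KO array exceeded the highest WT array by a wide margin, but the Id3KO arrays were spread, with 1 high array in each stage.

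The gelsolin group means were 612.4 ± 69.4 (SD, n = 2) and 398.1 ± 58.9 (SD, n = 3) in WT, against 2060 ± 826 (SD, n = 2) and 1724 ± 432 (SD, n = 3) in Id3KO. The log2 difference was 1.69 ± 0.29 (SE) at stage 1 and 2.10 ± 0.24 at stage 2, or 3.24-fold and 4.28-fold higher. The larger standard error than for Capg reflects that spread: without the first Id3KO stage 1 array the stage 1 difference was 2.11, and without the second it was 1.27.

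The other gelsolin probe sets gave a second reading of the gene. The set 1415812_at, whose name carries no mark of shared probes, read 153.2 and 145.3 in WT stage 1, 116.5, 82.75 and 111.7 in WT stage 2, 438.1 and 656.3 in Id3KO stage 1, and 536.6, 384.7 and 330.2 in Id3KO stage 2. Its differences of 1.85 ± 0.27 and 1.99 ± 0.22, or 3.59-fold and 3.99-fold, were close to those of the brightest set. The sets 1437171_x_at (1.72 and 2.20) and 1436991_x_at (1.72 and 2.19) also gave close values. The set 1456569_x_at differed by 0.29 and 0.50, but it was above the filter level on the 5 Id3KO arrays and on no WT array, so it passed the filter through the group where it was high and no fold is given for it. The sixth set, 1456568_at, was below the level on all 10 arrays, at 37.3 to 43.3, and carries no information on the gene.

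**Figure D1:**
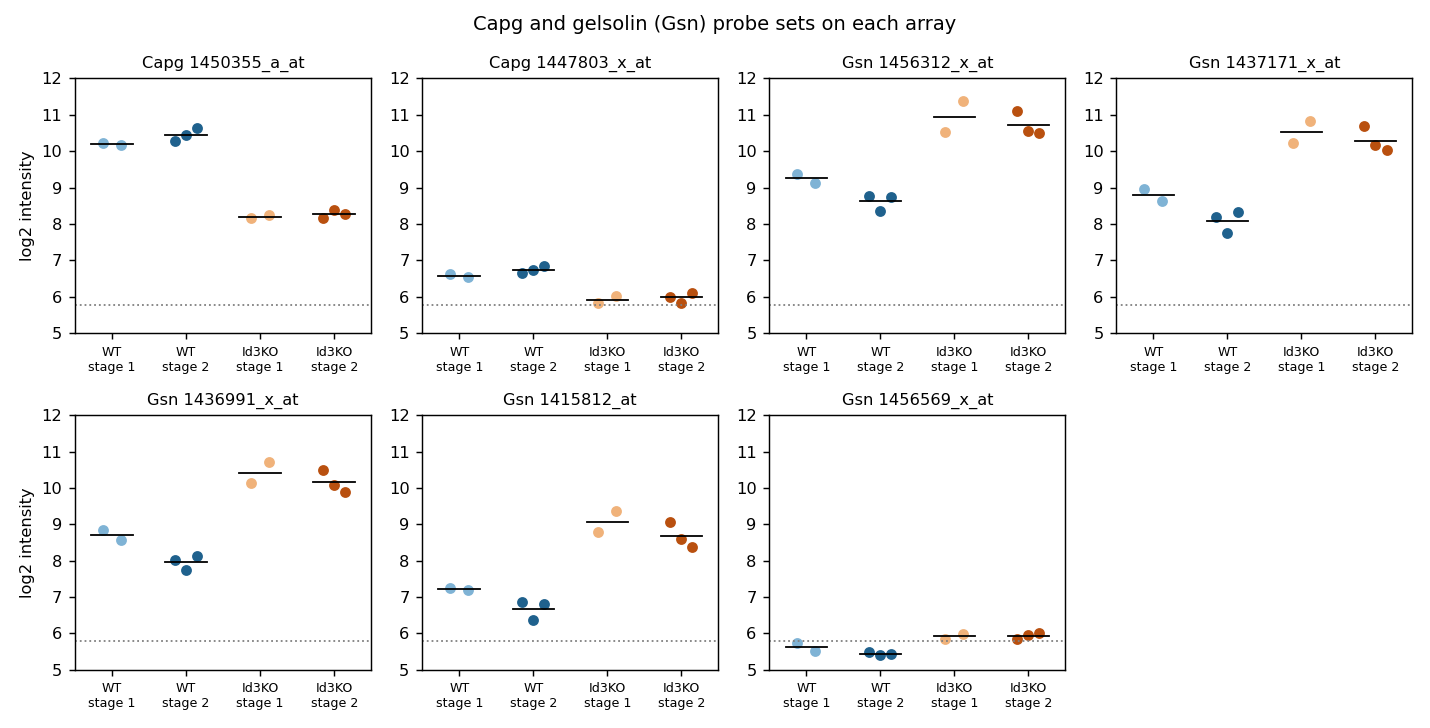
Log2 intensity of each kept Capg and Gsn probe set on each array, by group, with group means as lines and the filter level of 5.78 as a dotted line. In every panel all Id3KO points lie on one side of all WT points, lower for the 2 Capg sets and higher for the 5 Gsn sets. The Gsn set 1456569_x_at passed the filter only through the Id3KO arrays and is no separate reading.

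Capg and Gsn are among the filament-end genes that cells other than T cells also express, so markers of such cells were read beside them. The summed intensity of 10 myeloid and dendritic cell markers was 522 to 539 in WT stage 1, 511 to 535 in WT stage 2, 551 to 556 in Id3KO stage 1 and 525 to 548 in Id3KO stage 2. The sums of the genotypes thus did not overlap at stage 1, where Id3KO was slightly higher. Single markers of this list read from 36.4 to 80.6, where the filter level was 55.1, so these sums are made of signals near that level. The 6 of these markers that passed the filter were tested, and none was called between genotypes at either stage by limma. Fcgr3 came nearest, at 0.62 ± 0.12 (SE) higher in Id3KO at stage 1 (limma adjusted p = 0.0715). Itgam, Adgre1 and Itgax were above the level on 0 of 10 arrays, and the part of such cells in the results was not tested. The summed intensity of 11 thymic stroma and vessel markers was 546 to 588 over all arrays, with Pdgfra, Col1a1, Col1a2, Col3a1, Pecam1 and Cdh5 above the level on no array. Of the B cell, double-positive thymocyte and erythroid marker lists, 3, 3 and 1 genes passed the filter, and none was called. The double-positive sums did not overlap between genotypes at stage 1, at 687 to 706 in WT and 717 to 729 in Id3KO. The erythroid sums did not overlap at stage 2, at 151.8 to 155.2 in WT and 147.5 to 149.0 in Id3KO.

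Markers of iNKT subsets did move with the genotype. The summed intensity of 7 NKT17 markers was 706 to 947 in WT stage 1, 2443 to 4163 in WT stage 2, 516 to 561 in Id3KO stage 1 and 492 to 703 in Id3KO stage 2. That of 8 NKT1 markers was 1713 to 1762, 3597 to 3694, 969 to 1444 and 1180 to 1514 in the same order. At stage 2, 7 of 7 NKT17 and 5 of 8 NKT1 markers were called lower in Id3KO (medians of -2.30 and -1.31), against 3.22% of all genes. At stage 1 none of the 15 was called (medians of -0.49 and -0.21). The stage 1 arrays of Id3KO and WT were separate for 5 of the 7 and 6 of the 8, where 41.5% of all kept probe sets were separate. The summed intensity of 5 NKT2 markers was 2913 to 3429 in WT stage 1 and 3220 to 3310 in WT stage 2. In Id3KO it was 2775 to 2790 at stage 1 and 2778 to 3127 at stage 2. These sums were thus lower in Id3KO without overlap at both stages. Il13 was the only NKT2 marker called by limma, lower at both stages. In sorted bulk samples fewer cells of a type and less RNA per cell cannot be told apart, and the part of subset makeup in the results was not tested.

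The genes that regulate filament turnover, Cfl1 and Coro1a, stayed within 0.20 log2 units of WT on every kept probe set. Cfl1 (1455138_x_at) read 4884 and 5079 in WT stage 1, 5004, 4958 and 4867 in WT stage 2, 4670 and 4428 in Id3KO stage 1, and 4780, 4627 and 4718 in Id3KO stage 2. The Id3KO arrays were all below the WT arrays, yet the differences were small, -0.13 ± 0.08 (SE) and -0.07 ± 0.06. The dimmer Cfl1 set differed by -0.11 ± 0.13 with overlap at stage 1 and by -0.18 ± 0.11 without overlap at stage 2.

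Coro1a (1416246_a_at) read 3710 and 4724 in WT stage 1, 4632, 4402 and 4431 in WT stage 2, 4645 and 4320 in Id3KO stage 1, and 4228, 3835 and 3954 in Id3KO stage 2. The groups overlapped at stage 1 (0.10 ± 0.12), and at stage 2 the Id3KO arrays were lower by 0.16 on the log2 scale (-0.16 ± 0.10). The other Coro1a sets differed by -0.06 ± 0.10 and -0.06 ± 0.15 at stage 1 and by -0.10 ± 0.08 and -0.04 ± 0.13 at stage 2, with overlap throughout.

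Of the bundling and crosslinking members, Lcp1 (1415983_at) read 3570 and 3851 in WT stage 1, 3826, 3521 and 3709 in WT stage 2, 3405 and 3286 in Id3KO stage 1, and 3559, 3285 and 3455 in Id3KO stage 2. Its difference was -0.15 ± 0.09 (SE) without overlap at stage 1 and -0.10 ± 0.07 with overlap at stage 2. A second Lcp1 set pointed the other way at stage 2 (0.18 ± 0.10, with overlap), so the sets of this gene disagree in sign there.

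Actn1 (1428585_at) read 193.3 and 234.7 in WT stage 1, 185.4, 179.8 and 164.4 in WT stage 2, 175.4 and 215.9 in Id3KO stage 1, and 153.6, 93.87 and 131.7 in Id3KO stage 2. The genotypes overlapped at stage 1 (-0.13 ± 0.22), and at stage 2 the Id3KO arrays were all lower, by 1.42-fold (-0.51 ± 0.18). Its 2 other sets were below the level on every array. Flna (1426677_at) read 857.6 and 1229 in WT stage 1, 1134, 945.2 and 989.6 in WT stage 2, 1107 and 867.2 in Id3KO stage 1, and 740.4, 785.8 and 904.3 in Id3KO stage 2. It too overlapped at stage 1 (-0.07 ± 0.19) and was lower without overlap at stage 2 (-0.34 ± 0.16).

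Lsp1 was the third member with a difference near or above 1 log2 unit. Its single probe set (1417756_a_at) read 1561 and 1556 in WT stage 1 and 1725, 1879 and 1889 in WT stage 2, against 818.6 and 781.9 in Id3KO stage 1 and 726.9, 615.8 and 951 in Id3KO stage 2. The Id3KO arrays were all well below the WT arrays. The group means were 1559 ± 2.9 (SD, n = 2) and 1831 ± 92.2 (SD, n = 3) in WT and 800.3 ± 25.9 (SD, n = 2) and 764.6 ± 171 (SD, n = 3) in Id3KO. The log2 difference was -0.96 ± 0.17 (SE), or 1.95-fold lower, at stage 1 and -1.28 ± 0.14, or 2.43-fold lower, at stage 2.

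**Figure D2:**
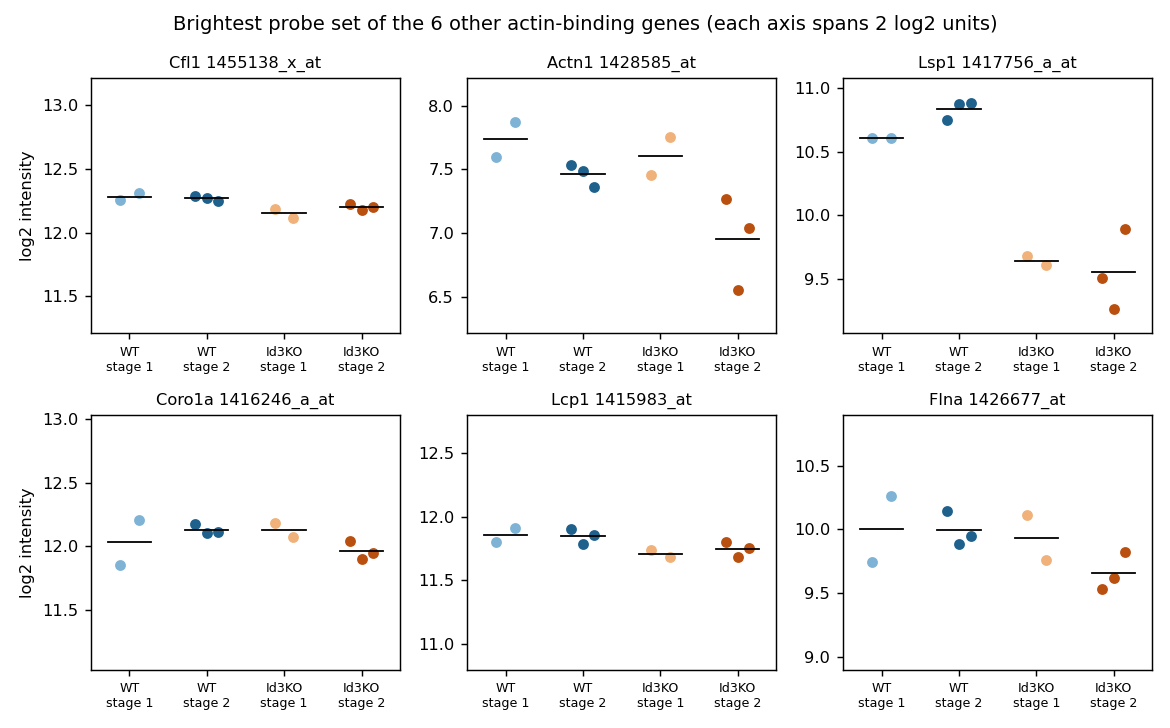
Log2 intensity on each array of the brightest probe set of Cfl1, Actn1, Lsp1, Coro1a, Lcp1 and Flna, by group, with group means as lines; each vertical axis spans 2 log2 units. Lsp1 alone of these 6 shows a wide gap between the genotypes at both stages, and Actn1 drops on the Id3KO stage 2 arrays.

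By the brightest set of each gene, Id3KO and WT arrays were separate for 5 of 8 genes at stage 1 (Gsn higher; Capg, Lsp1, Cfl1 and Lcp1 lower) and for 7 of 8 at stage 2 (Gsn higher; all others lower except Lcp1, which overlapped). Over the 17 kept sets, 10 did not overlap at stage 1, 5 higher and 5 lower, where 41.5% of all 25061 kept probe sets did not overlap (18.7% higher and 22.8% lower). At stage 2, 13 did not overlap, 5 higher and 8 lower, where 21.4% of all kept sets did not (10.9% higher and 10.5% lower). The 5 higher sets were all of Gsn at both stages, and they include 1456569_x_at, which passed the filter only through the Id3KO arrays. Capg and Gsn were picked from these contrasts, and the other genes were listed with earlier results of these data known, so nothing is read from these counts. Outside Capg, Gsn and Lsp1, sizes stayed between -0.51 and 0.18 at both stages over all kept sets.

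**Figure D3:**
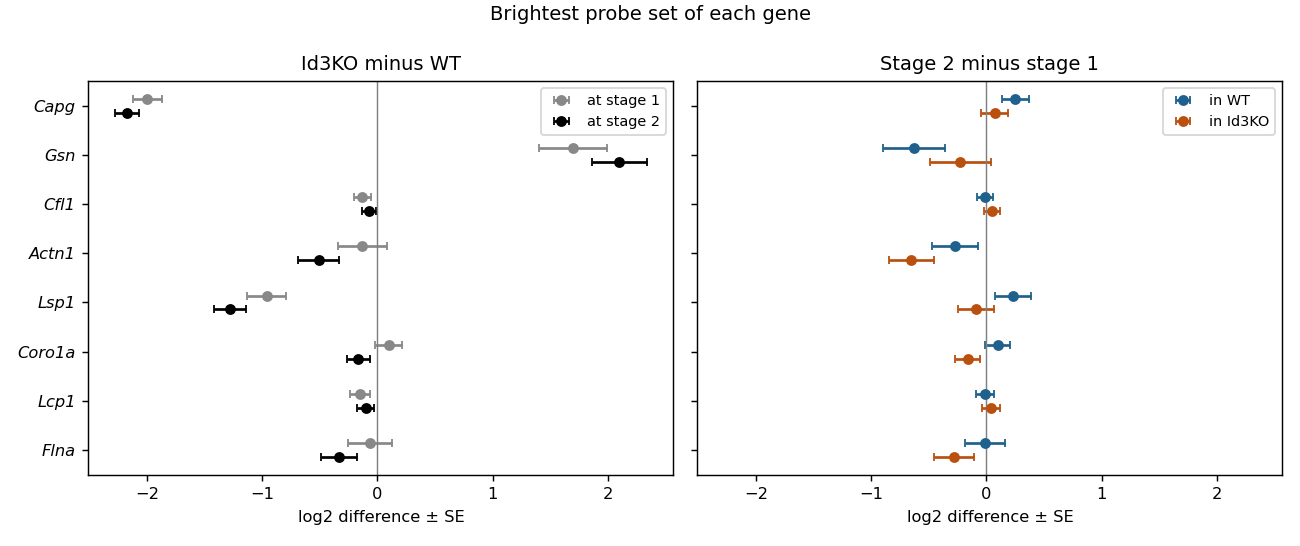
Log2 difference ± SE of the brightest probe set of each of the 8 genes, Id3KO minus WT at each stage (left) and stage 2 minus stage 1 in each genotype (right). Capg and Lsp1 lie left of 0 and Gsn right of it on the left panel, while the stage differences lie between -0.65 and 0.25.

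Changes of the members from stage 1 to stage 2 were tested with limma. The same arrays serve both kinds of comparison, and the members were chosen with earlier results of these data known. The stage tests are therefore not independent of that choice. None of the 17 sets was called in WT (adjusted p under 0.05, lowest adjusted p = 0.459, 3 with an unadjusted p under 0.05) and none in Id3KO (lowest adjusted p above 0.999, 1 unadjusted). The whole table gave few calls as well, 0.016% of kept probe sets in WT and 0% in Id3KO. Its share of sets with an unadjusted p under 0.05 is not given here, so nothing is read from the unadjusted counts. The arrays of the 2 stages did not overlap for 9 of the 17 sets in WT, 3 higher and 6 lower at stage 2, against 26.2% of all kept sets (11.8% higher and 14.4% lower). Of these 9, the Gsn set 1456569_x_at was below the filter level on all WT arrays and is no reading of a stage difference. Of the other 8, 4 were sets of Gsn and 2 of Capg, so they are not separate readings. In Id3KO 3 of 17 did not overlap, all lower, against 18.4% of all kept sets (9.45% higher and 8.91% lower).

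Gelsolin was the member with the largest stage difference in WT, where the stage 2 arrays were all lower than the stage 1 arrays on each of its 4 sets that were above the level in WT. The brightest set differed by -0.63 ± 0.27 (SE; limma adjusted p = 0.612) and 1436991_x_at by -0.73 ± 0.22 (limma adjusted p = 0.459, unadjusted p = 0.00998). Capg pointed the other way in WT, at 0.25 ± 0.11 without overlap (limma adjusted p = 0.637), as did Lsp1 at 0.23 ± 0.16 (limma adjusted p = 0.782). In Id3KO cells both Gsn (-0.22 ± 0.27) and Capg (0.07 ± 0.11) overlapped between the stages. These values did not pass the test, and 2 or 3 arrays a group do not show that the stages were alike.

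In Id3KO the largest stage difference was that of Actn1, whose 3 stage 2 arrays (93.87 to 153.6) were below both stage 1 arrays (175.4 and 215.9), with a log2 difference of -0.65 ± 0.20 (limma unadjusted p = 0.00929, adjusted p = 0.9999). In WT the Actn1 difference was -0.27 ± 0.20, also without overlap. The change of the genotype difference from stage 1 to stage 2 is given without a test, since it is made of the genotype differences. It was -0.18 ± 0.16 for Capg and 0.40 ± 0.38 (SE) for Gsn, and it lay between -0.38 and 0.34 over the 10 kept sets of the other 6 genes.

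The rest of the actin machinery was read from 137 regulators outside the 8 genes, of which 117 were measured above the filter level, with the brightest probe set standing for each gene. At stage 1 limma called 1 of the 117 (0.855%) higher in Id3KO and none lower, against 1.05% of all 11951 genes (0.594% higher and 0.46% lower). At stage 2 it called 1 higher and 10 lower (9.4%), against 5.58% of all genes, where 2.36% were higher and 3.22% lower. The median log2 difference of the list was -0.08 at stage 1 and -0.09 at stage 2, beside -0.02 and 0.01 for all genes. In the stage comparisons and in the interaction of genotype and stage no regulator was called by limma, against 0.0335% of all genes for WT and 0% for the other comparisons. An unadjusted limma p under 0.05 was found for 10 of the 117 regulators between WT stages, 10 between Id3KO stages and 13 in the interaction. The share of all genes under that limit is not given here, so nothing is read from these counts.

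The closest relatives of Capg and gelsolin did not pass the test. Of the 4 tested gelsolin family genes, Flii, Svil, Avil and Vill, none was called at either stage, and their log2 differences ran from -0.05 to 0.07 at stage 1 and from -0.17 to -0.02 at stage 2. Flii, the brightest, differed by 0.07 ± 0.12 (SE) and -0.17 ± 0.10 (limma adjusted p = 0.918 and 0.471). Scin and Vil1, the other family members of the list, were below the level. None of 9 other filament end capping genes was called. Capza1, a subunit of the capping protein CapZ, differed by -0.31 ± 0.09 at stage 1 and -0.09 ± 0.08 at stage 2 (limma adjusted p = 0.251 and 0.636).

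Actin itself and its monomer-binding proteins, 6 genes, held no call at either stage. Tmsb10, a thymosin that holds monomers, differed by 0.02 ± 0.07 (SE) and 0.06 ± 0.06. The filament turnover list of 17 genes held 2 calls at stage 2, Ssh2 and Coro2a, both lower. Ssh2, a slingshot phosphatase that activates cofilin, read 267.1 and 349.5 in WT stage 1, 387.3, 442.2 and 463.8 in WT stage 2, 248.8 and 261.8 in Id3KO stage 1, and 191.9, 188.4 and 199.1 in Id3KO stage 2. The Id3KO stage 2 arrays were the lowest of all and 2.23-fold below the WT stage 2 arrays (-1.15 ± 0.11, limma adjusted p = 0.00111), and a second Ssh2 set was called as well (-0.81 ± 0.14, limma adjusted p = 0.0169). At stage 1 Ssh2 differed by -0.26 ± 0.14 (limma adjusted p = 0.573). Coro2a, a coronin, differed by -0.56 ± 0.13 at stage 2 (limma adjusted p = 0.0468).

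The regulator that rose at stage 2 was Cttn, cortactin, which binds and steadies branched filaments made by the Arp2/3 complex. It read 59 and 64.5 in WT stage 1 and 59.9, 44.8 and 64.3 in WT stage 2, near the filter level, against 149.9 and 342.3 in Id3KO stage 1 and 271.2, 139.3 and 127 in Id3KO stage 2. The 2 highest Cttn arrays were also the 2 highest Gsn arrays. Its log2 difference was 1.60 ± 0.35 (SE; 3.03-fold, limma adjusted p = 0.0407) at stage 2 and 1.88 ± 0.43 (limma adjusted p = 0.113) at stage 1, while a second set gave 0.99 ± 0.25 at stage 2 (limma adjusted p = 0.0631). Of the other 15 genes of the Arp2/3 list none was called; Arpc2, a subunit of the complex, differed by -0.09 ± 0.08 and -0.06 ± 0.06.

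Among 10 formins and Ena/VASP proteins, which lengthen filaments, Diaph1 was called lower at stage 2, at 316.1, 328.5 and 331.8 in Id3KO against 439.5, 455.2 and 501.8 in WT (-0.51 ± 0.08 (SE), 1.43-fold, limma adjusted p = 0.0115). Its 2 dimmer sets were not called (-0.48 and -0.25). Evl, the brightest of that list, differed by -0.44 ± 0.12 (limma adjusted p = 0.0902). Among 19 bundling and crosslinking genes, Actn2 and Iqgap2 were lower at stage 2 and Pls1 was higher at stage 1. Actn2, an alpha-actinin best known from muscle, read 113, 175.5 and 196.8 in WT stage 2 against 64.1, 85.3 and 64.7 in Id3KO stage 2 (-1.15 ± 0.23, limma adjusted p = 0.0267). At stage 1 it pointed the other way, 61.7 and 67.4 in WT against 112.6 and 76.0 in Id3KO (0.52 ± 0.28, limma adjusted p = 0.588).

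Iqgap2, a scaffold that binds filaments, differed by -0.55 ± 0.11 (SE) at stage 2 (limma adjusted p = 0.0285), and a second set by -0.28 without a call. Pls1, a plastin like Lcp1, read 79.3 and 82 in WT stage 1 and 126.6 and 128.4 in Id3KO stage 1 (0.66 ± 0.11, 1.58-fold, limma adjusted p = 0.0343). Its difference at stage 2 was 0.22 ± 0.09 (limma adjusted p = 0.247). Lasp1, the brightest of the bundling genes, differed by -0.33 ± 0.15 and -0.36 ± 0.12 without a call.

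**Figure D4:**
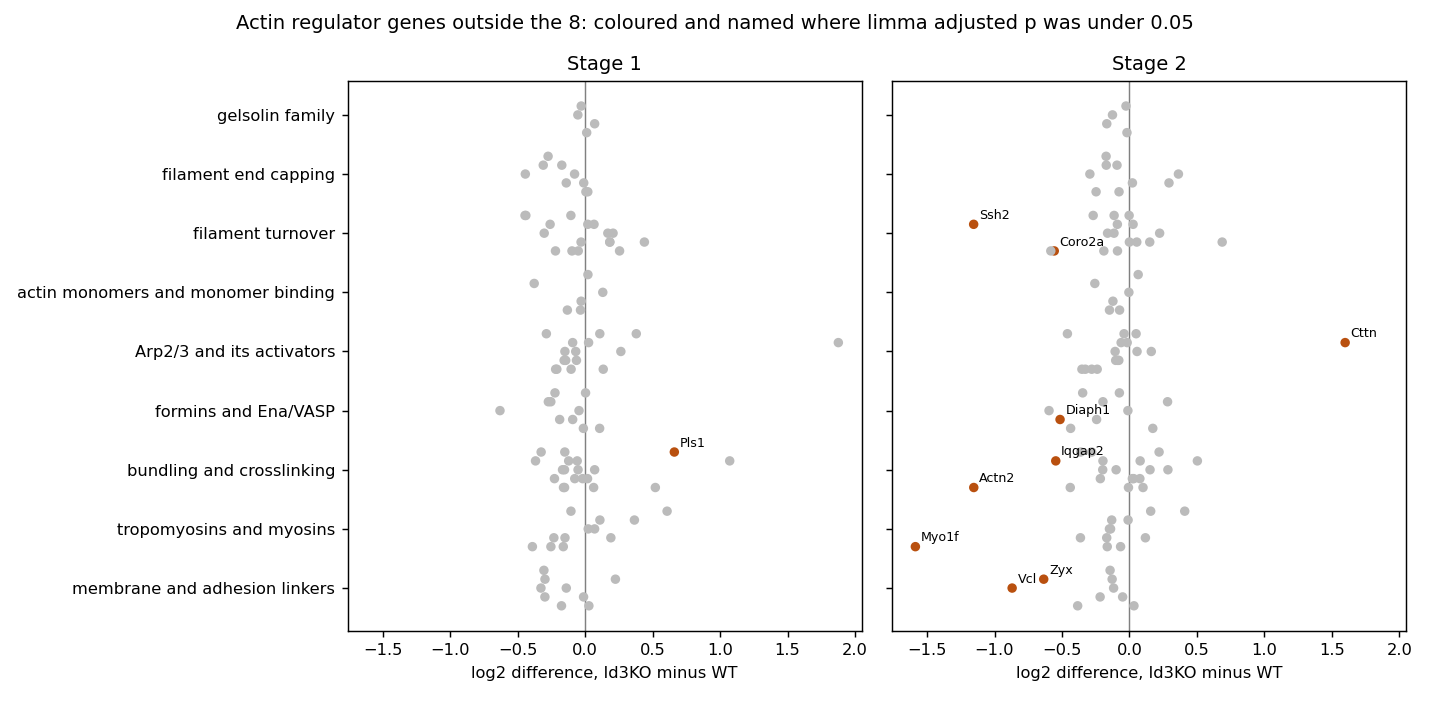
Log2 difference, Id3KO minus WT, of 102 tested actin regulators in 9 functional lists at stage 1 (left) and stage 2 (right), 1 point a gene, coloured and named where the limma adjusted p was under 0.05. Pls1 is named at stage 1, and 8 lower genes and Cttn at stage 2, while the gelsolin family sits near 0 in both panels. Of that family, Avil and Vill had signals near the filter level.

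Of 12 tropomyosins and myosins, Myo1f was called at stage 2, where it was 3.00-fold lower. Myo1f, a single-headed myosin of leukocytes, read 106.6 and 99.7 in WT stage 1, 274.5, 281.4 and 272.9 in WT stage 2, 110.2 and 56.1 in Id3KO stage 1, and 61.8, 90.2 and 139.6 in Id3KO stage 2. The 3 WT stage 2 arrays stood above all others, and all 3 Myo1f sets were called (-1.59 ± 0.30, -1.39 ± 0.27 and -0.82 ± 0.14 (SE), limma adjusted p = 0.0238, 0.0248 and 0.0139). Myl12b, a myosin light chain and the brightest of its list, differed by -0.14 ± 0.08 at stage 2 (limma adjusted p = 0.456).

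Both called genes among 9 membrane and adhesion linkers code for focal adhesion proteins, and both were lower at stage 2. Vinculin (Vcl) read 136.8, 95.7 and 95.2 in WT against 78.6, 50.3 and 51.7 in Id3KO (-0.87 ± 0.20 (SE), limma adjusted p = 0.0454). Zyxin (Zyx) read 389.9, 424.2 and 417.5 against 243.5, 253 and 299.1 (-0.64 ± 0.12, limma adjusted p = 0.0217), and its second set was not called (-0.25). The other two calls at stage 2, Dock2, an activator of Rac in lymphocytes, and Rac2, were also lower, by -0.57 ± 0.10 and -0.45 ± 0.10 (limma adjusted p = 0.0191 and 0.0497). The dimmer Dock2 sets were not called at stage 2 (-0.27 and -0.31), and with the mean of all its probe sets Dock2 was not called (limma adjusted p = 0.0783). Rac2 overlapped at stage 1 (0.02 ± 0.13).

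**Figure D5:**
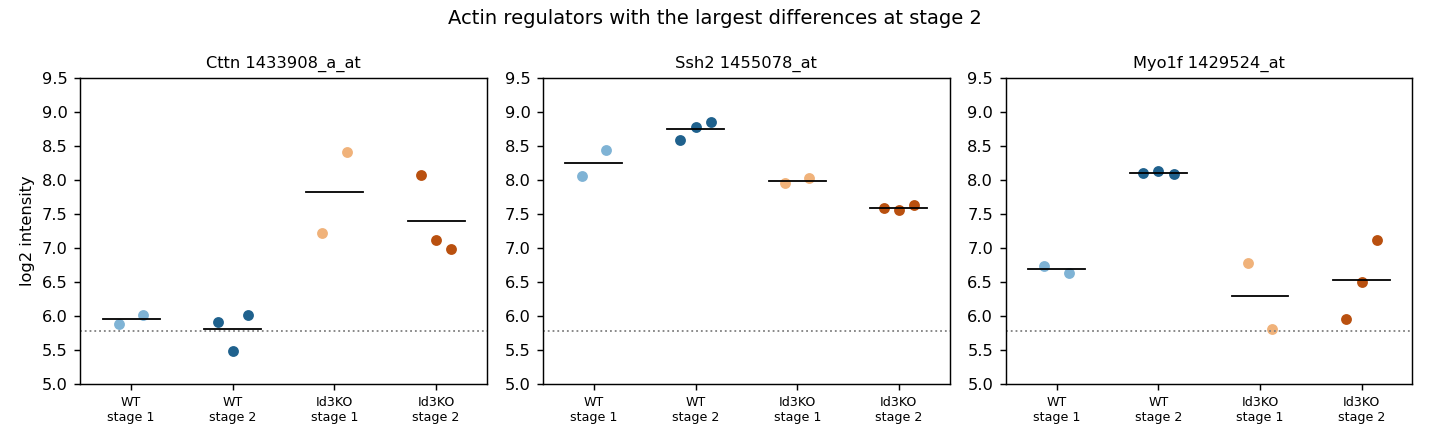
Log2 intensity on each array of Cttn, Ssh2 and Myo1f, the regulators with the largest stage 2 differences outside the 8 genes, by group, with group means as lines and the filter level of 5.78 as a dotted line. Cttn is raised on the 5 Id3KO arrays, Ssh2 is lowest on the Id3KO stage 2 arrays, and Myo1f is raised on the 3 WT stage 2 arrays.

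The stage 2 calls outside the 8 genes rest on few arrays. Under 19 other settings that kept the same probe set, Ssh2 and Diaph1 stayed called in each (adjusted p up to 0.00831 and 0.0492), but with the mean of all its probe sets Diaph1 was not called (limma adjusted p = 0.0995). The count of 11 fell to 7 without either WT stage 1 array or the first WT stage 2 array, to 3 without the second and to 2 without the third WT stage 2 array, and to 5 and 3 without the first and the second Id3KO stage 2 array. Not all of these were among the 11: Diaph2 was new without the first WT stage 2 array, and Cap2 without the second. Pls1, Cttn, Coro2a, Vcl and Rac2 each lost their call in at least 10 of the 19 settings, and the other 5 genes in 4 to 7 of them. When 1 array was left out, Pls1 kept its call without the second or the third Id3KO stage 2 array and lost it without any other. NKT17 and NKT1 marker sums were highest in the same WT stage 2 arrays in which Myo1f, Actn2 and Ssh2 were highest, and their part in these results was not tested.

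Patterns like those of Capg and Gsn were sought by distance, as the root mean square difference between log2 values centred on each gene's mean over the 10 arrays, among 11407 other genes. Capg itself varied by 1.06 on this measure. The nearest genes to it were Runx3 (0.266), a transcription factor of T cells, F2r (0.273), a thrombin receptor, Tnfrsf25 (0.307), a death receptor of the TNF receptor family, App (0.317), the amyloid precursor protein, and Gbp6 (0.323), a guanylate-binding protein. Their log2 differences at stage 1 and stage 2 were -1.30 and -2.09 for Runx3, -1.63 and -1.74 for F2r, -1.21 and -2.24 for Tnfrsf25, -1.96 and -1.56 for App, and -1.45 and -1.59 for Gbp6.

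Gsn varied by 1.03, and nearest to it was Cttn (0.268), followed by Exph5 (0.295), Chl1 (0.324), Pdgfc (0.324) and Asns (0.326). Exph5 differed by 1.91 at both stages, Chl1, a neural adhesion molecule, by 1.89 and 2.49, Pdgfc, a growth factor, by 1.02 and 1.78, and Asns, asparagine synthetase, by 1.84 and 2.30. Cttn was the only gene of the regulator lists, which held 117 tested genes, among the 5 nearest to gelsolin. None was among the 5 nearest to Capg, and nothing is read from these counts. The arrays are shared by all these genes and differ mainly by genotype (the first principal component, 33.0% of the variance, separated Id3KO from WT), so nearness here carries that split.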

How the data were processed

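RNA of sorted thymic iNKT cells was labelled in 2 cycles and measured on 10 Affymetrix arrays in 4 groups, which the labels name. The values the authors deposited are linear intensities per probe set, normalized with RMA per the submitters' processing notes, in a version not given in the sources used here. Intensities of an array are not counts, and the number of arrays limits the precision.

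Here log2 of the intensities was taken, and probe sets above the table's median on at least 2 arrays were kept. A model with a mean for each group was fitted to all arrays (limma 3.58.1, R 4.3.3), with two-sided moderated tests and Benjamini-Hochberg adjustment over 25061 probe sets per contrast. P-values measure the spread between these replicates. Gene lists used the brightest probe set of 1 gene. Promoter windows came from RefSeq.

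Named were all 8 genes, up to 4 called genes per actin list, the brightest gene of a list with fewer than 2 calls, and the 5 nearest genes by distance. The members and lists were chosen with earlier results of these data known. Regulators of the list with no probe set under their symbol were not analysed here. The count for 1 of the regulator lists is not reported here. The fit was tested on simulated data. Alternatives changed the filter, normalization, variance model, arrays and probe set rule.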

Additional observations from a re-analysis of the deposited data

Results flagged for a closer look

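Among the 12 actin regulators called at either stage, 4 met a rule on arrays that did not overlap. For these the 2 genotypes moved in opposite directions from stage 1 to stage 2, or the genotype difference turned with the stage. Limma's test of that interaction did not pass the adjustment for any of them. Regulators of the list that were not called met the same rule too. The share of all genes that met it is not given here, so nothing is read from the count. The interaction, the genotype difference at stage 2 minus that at stage 1, was -0.89 for Ssh2 (log2; adjusted p = 0.474 by limma, unadjusted p = 0.000681). Ssh2 was higher on the WT stage 2 than on the WT stage 1 arrays and lower on the Id3KO stage 2 than on the Id3KO stage 1 arrays. The interaction was -1.67 for Actn2 (adjusted p = 0.507 by limma), which was higher in Id3KO at stage 1 and lower at stage 2. It was -0.46 for Coro2a (adjusted p = 0.706 by limma) and -0.44 for Pls1 (adjusted p = 0.644 by limma), which were both higher on the stage 2 than on the stage 1 arrays in WT and lower in Id3KO.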

How the results depend on the processing

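Over 19 alternatives the genotype differences of Capg and Gsn ranged from -2.03 to -1.96 and from 1.27 to 2.11 at stage 1. At stage 2 they ranged from -2.26 to -2.08 and from 1.90 to 2.24. Both genes were picked for these differences, so the unchanged direction is a description and no separate support. A change of the filter alone leaves these differences as they are. No member set was called in a stage comparison under any alternative run. The actin regulators called at stage 1 were 1 in the fit reported, 0 with an intensity trend and robust prior, 0 with the 2 groups' arrays alone, 2 with array weights (Pls1 and Plek) and 4 with the mean of a gene's probe sets (Pls1, Plek, Diaph2 and Marcks), and 0 to 1 when 1 array was left out. Those at stage 2 were 11, against 7 without the filter and 5 with the 2 groups' arrays alone (Ssh2, Diaph1, Dock2, Myo1f and Zyx), and 2 to 8 when 1 array was left out. The stage 2 count was 12 with a stricter filter, 12 with array weights and 14 with the mean of a gene's probe sets. Of those 14, 9 were among the 11. Stage 2 against stage 1 in WT gave 1 regulator with those groups' arrays alone (Myo1f) and 0 in the fit reported. Fewer residual degrees of freedom go with the smaller fits; the cause of the other shifts was not tested. The replicate number as a block gave 0 regulators at stage 1 and 7 at stage 2, all 7 among the 11. The 13 same-number pairs had correlations of deviations from -0.311 to 0.133, and the 24 other pairs from -0.187 to 0.311. In a group of 2 arrays the deviations from the group mean mirror each other, so these pairs are not separate readings. They do not settle whether the numbers pair the arrays. A crossed pairing, in which only the numbers of the Id3KO stage 1 arrays were exchanged, gave 0 and 10 regulators. It was chosen after seeing the data. With 2 or 3 arrays a group, small changes could not be resolved.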
